A study of Mus musculus with 9 samples.

Results

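Ionotropic glutamate receptor subunits were examined in mouse dorsal root ganglia (DRG), which hold the cell bodies of sensory neurons, after injury of the sciatic nerve. The subunits were 4 AMPA receptor genes (Gria1, Gria2, Gria3 and Gria4), 3 kainate receptor genes (Grik1, Grik2 and Grik5) and 3 NMDA receptor genes (Grin1, Grin2b and Grin3a), 10 of the 19505 genes with a symbol on the array. Every probe of these genes was taken by its gene name, an older symbol or its RefSeq identifier, which gave 25 of 41174 probes. The genes were picked with an earlier comparison of the same injured and uninjured arrays known, in which Gria2 had one of the largest falls, so their injury differences are given as a description with no test.

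RNA came from L3/L4 DRG of adult mice, 4 uninjured samples and 5 injured samples that the labels place 3 days after sciatic nerve transection. The study's methods also give 3 days and its results text 24 hr. All 9 samples were Cre negative and Jun wild type in the labels (cre.neg, jun.wt), so both groups share that background. The study's nerve injury methods describe ganglia of the uninjured side as controls for its other assays, and the array methods say only that the controls were uncrushed. The labels do not name animals, so p-values measure only the spread between these samples. Each sample was labelled with Cy5 and hybridised to an Agilent mouse array against Cy3-labelled universal mouse reference RNA, a commercial RNA pool that was the same on every array. Of the spots, 71.0 to 78.9% per array were above background in Cy5. Values below are log2 ratios of sample over reference, and a difference is the injured mean minus the uninjured mean on that scale.

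Glutamate is the main transmitter that sensory neurons release onto spinal cord neurons, and the same neurons carry receptors for it on their cell bodies, central terminals and peripheral endings. AMPA and kainate receptors are fast cation channels built from 4 subunits each, and the presence of an edited GluA2 subunit (Gria2) makes an AMPA receptor largely impermeable to calcium. NMDA receptors need the GluN1 subunit (Grin1) together with GluN2 or GluN3 partners, and GluK1 (Grik1) is the kainate subunit best known from small sensory neurons.

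The promoters of the subunits with injury differences of unlike size are shown first, since several subunits were lower together. RefSeq promoter sequences of build GRCm38.p6, each from 250 bases before to 50 bases after the start of a gene, were at hand for 5 of the 10 subunits, which were Gria2, Gria4, Grik2, Grik5 and Grin1. Of these, Gria2 and Gria4 had the larger falls and Grik5 one of the smallest differences. Gria2 lies at chr3:80802786-80803085, Gria4 at chr9:4796185-4796484 and Grik5 at chr7:25072320-25072619, all on the minus strand. Each is printed 5′ to 3′ on the gene's own strand, with the matches to the motifs named afterwards in capitals.
Gria2: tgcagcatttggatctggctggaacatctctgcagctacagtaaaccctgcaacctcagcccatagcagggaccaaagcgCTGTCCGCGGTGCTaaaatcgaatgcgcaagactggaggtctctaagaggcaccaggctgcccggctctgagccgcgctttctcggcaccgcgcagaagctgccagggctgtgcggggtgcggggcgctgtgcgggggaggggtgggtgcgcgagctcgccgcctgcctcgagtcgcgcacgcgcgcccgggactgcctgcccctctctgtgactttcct
Gria4: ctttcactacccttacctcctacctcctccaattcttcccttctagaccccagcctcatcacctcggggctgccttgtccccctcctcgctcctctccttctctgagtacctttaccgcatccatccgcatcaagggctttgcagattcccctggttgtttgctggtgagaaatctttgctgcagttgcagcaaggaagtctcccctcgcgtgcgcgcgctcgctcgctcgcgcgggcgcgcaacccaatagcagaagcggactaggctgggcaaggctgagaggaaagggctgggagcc
Grik5: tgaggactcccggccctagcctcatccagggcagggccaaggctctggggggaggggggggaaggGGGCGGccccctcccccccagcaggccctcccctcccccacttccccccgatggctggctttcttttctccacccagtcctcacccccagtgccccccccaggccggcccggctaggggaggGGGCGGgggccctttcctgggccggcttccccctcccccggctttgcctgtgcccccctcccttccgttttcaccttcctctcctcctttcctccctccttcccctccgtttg
The letters searched, on both strands, were TGANTCA (AP-1, the site of Jun and Fos), TGACGTCA (the cAMP response element), TGATGNAA (the C/EBP-ATF element), GGGCGG (the GC box) and CTGTCC followed after any 2 bases by GGTGCT, the core of the RE1 element bound by the repressor REST. The RE1 letters were added after the Gria2 sequence had been seen. They matched in Gria2 from position -170 relative to the start and stood in 17 of 32851 mouse promoters of the same length (0.0517%). GGGCGG matched the Grik5 promoter 2 times and the Grin1 promoter once, and stood in 35.7% of all promoters. None of the AP-1, cAMP response or C/EBP-ATF letters matched in any of the 5 windows, where 7.81%, 1.79% and 3.97% of all promoters held them. These are matches of letters in a window and say nothing of binding.

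Of the 25 subunit probes, 18 were above background in Cy5 on at least 4 of the 9 arrays and were fitted, with at least 1 probe for every one of the 10 genes. All 18 had a lower mean in injured than in uninjured DRG, by 0.09 to 1.65 on the log2 scale, with a median difference of -0.41 against -0.0045 for the 31186 probes fitted. On 9 of the 18 every injured array lay below every uninjured array, which was true of 12.5% of all probes. By the brightest probe of each gene, 10 of 10 were lower. The genes were chosen on this contrast, so nothing is read from these counts. Over the whole array, limma's moderated test at an adjusted p under 0.05 called 23.5% of all probes. RNA from whole ganglia cannot tell fewer neurons with a transcript from less transcript per neuron. None of the 25 probes had a spot flagged for uneven background on any array, but such spots elsewhere on the arrays shift the background model and thereby these values, so both versions are given below.

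**Figure D1:**
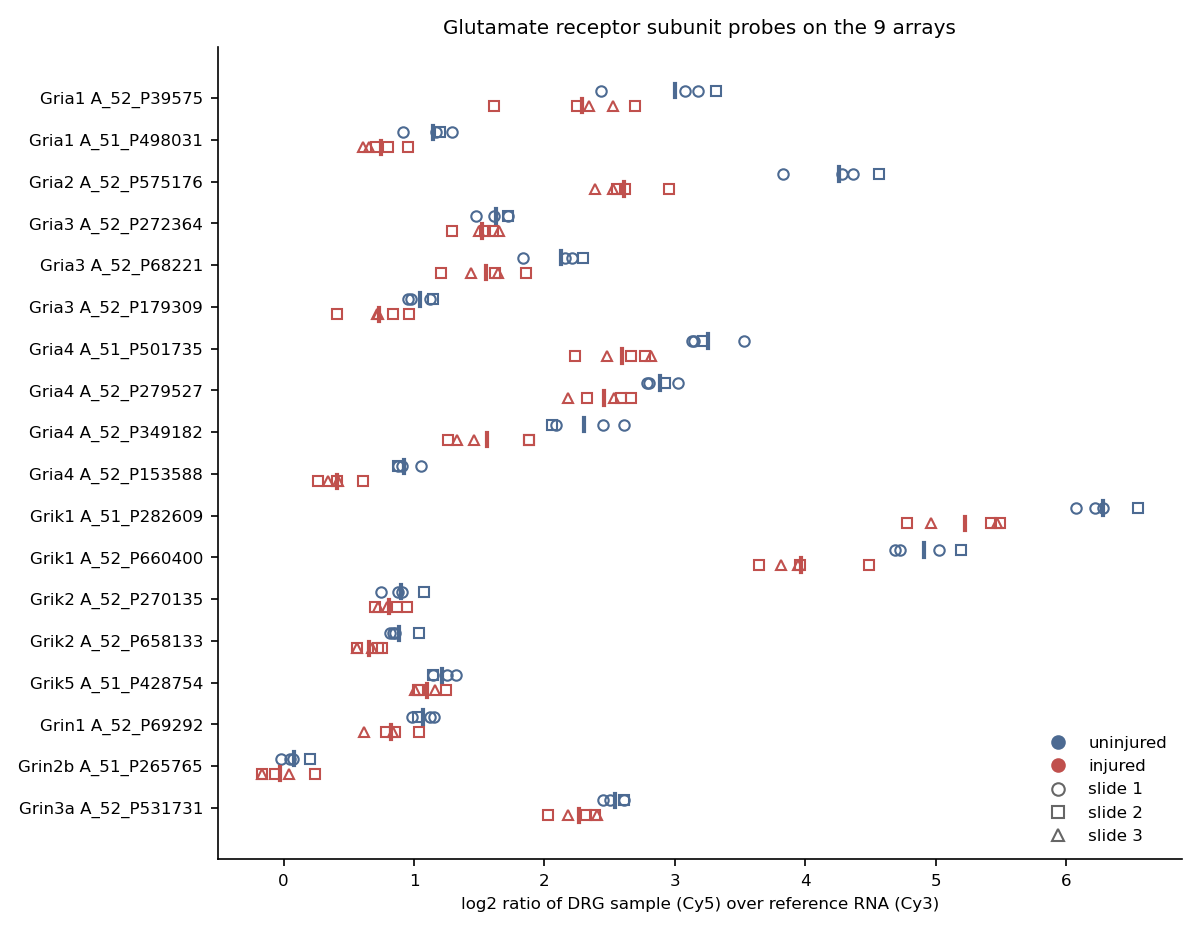
Log2 ratio of DRG sample over reference RNA (horizontal axis) for the 18 fitted subunit probes, 1 symbol per array, with colour for the group, shape for the slide and a vertical bar for the group mean. Gria2, all 4 Gria4 probes, both Grik1 probes, Grik2 A_52_P658133 and the Grin3a probe show every injured array below every uninjured array. Grik5 and the Grin2b probe overlap widely.

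Gria2, which encodes the GluA2 subunit, had the largest fall of the subunits. Its probe A_52_P575176 (NM_013540, build mm7, chromosome 3, 80793353 to 80793412, minus strand) read 4.56, 3.83, 4.37 and 4.28 in the 4 uninjured samples. It read 2.96, 2.62, 2.52, 2.39 and 2.56 in the 5 injured samples. Every injured array lay below every uninjured array, and uninjured sample 2 and injured sample 1 came closest to the other group. The difference was -1.65 ± 0.15 (SE, n = 4 and 5), a 3.14-fold lower mean, and 1 of the 31186 probes fitted had a larger fall. With the flagged spots kept it was -1.86 ± 0.25. The Cy5 signal over local background ran from 1460 to 2300 in uninjured and from 343 to 777 in injured samples. The reference channel was weak, with Cy3 above background on 3 of 9 arrays, and in Cy5 alone the difference was -1.63 ± 0.13. In Agilent's own ratio it was -0.55. That ratio replaces a weak channel by a substitute value, here in Cy3 on 1 array. The cause of the smaller fall was not tested.

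The other 2 Gria2 probes were not well above background on any array and give no level. A_52_P360995, 20.4 kb upstream of the last probe on the mm7 coordinates, had a Cy5 signal over background of 12.2 to 23.3 in uninjured and 4.58 to 12.6 in injured samples. A_52_P891243, 3.03 kb downstream of the probe with signal, had 2.82 to 20.6 and 5.99 to 16.1. The fall of Gria2 therefore rests on 1 probe, and the transcript part each probe reads was not analysed here because no mm7 gene models were used.

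**Figure D2:**
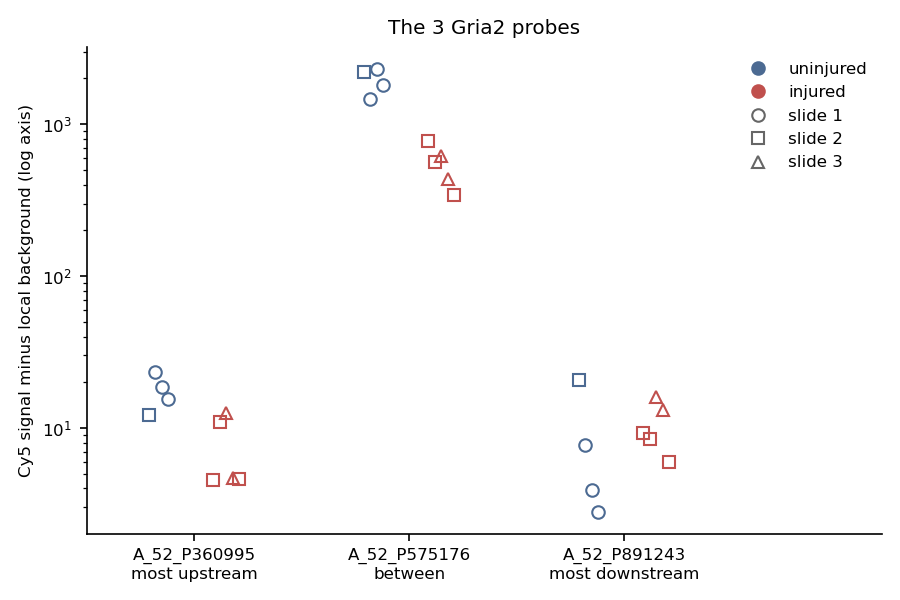
Cy5 signal minus local background (vertical axis, log scale, arbitrary scanner units) for the 3 Gria2 probes in the order of the transcript, 1 symbol per array. The middle probe separates uninjured (1460 to 2300) from injured samples (343 to 777), and the outer probes stay near background. Brightness of different probes is not comparable.

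Gria4, which encodes GluA4, was lower on all 4 of its probes, with no overlap of the groups on any of them. The brightest, A_51_P501735 (NM_019691, chromosome 9, 4337362 to 4337421, minus strand, mm7), read 3.22, 3.13, 3.15 and 3.53 in uninjured and 2.23, 2.77, 2.48, 2.82 and 2.66 in injured samples. Uninjured sample 4 was the highest and injured sample 1 the lowest. The difference was -0.66 ± 0.13 (SE), or -0.84 with flagged spots kept. The 3 other probes differed by -0.43 ± 0.10 (A_52_P279527), -0.74 ± 0.16 (A_52_P349182) and -0.52 ± 0.08 (A_52_P153588). With flagged spots kept they differed by -0.61, -0.93 and -0.58. The probes span 244.9 kb of the gene. Agilent's own ratio turned the sign on A_52_P279527 (0.32) and A_52_P349182 (0.31). Cy3 was above background on 7 and 1 arrays there, and in Cy5 alone both were lower, by -0.51 and -0.75. A_52_P153588 was at -1.195 in Agilent's own ratio and at -0.62 in Cy5 alone. Its Cy3 was above background on 0 arrays and carried a substitute value on 5.

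Gria1, which encodes GluA1, was lower on both probes, with overlap. A_52_P39575 (NM_008165, chromosome 11, 57411500 to 57411559, plus strand, mm7) read 3.32, 3.08, 3.18 and 2.43 in uninjured samples. It read 2.69, 2.25, 2.52, 2.34 and 1.62 in injured samples. Uninjured sample 4 lay within the injured range, and injured sample 5 was far below its group. The difference was -0.72 ± 0.22 (SE), -0.82 with flagged spots kept, and -0.55 without injured sample 5. The dimmer probe A_51_P498031 differed by -0.40 ± 0.09, or -0.47 with flagged spots kept.

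Gria3, which encodes GluA3, differed between its 3 probes. A_52_P272364 (AK161163) read 1.47 to 1.72 in uninjured and 1.29 to 1.65 in injured samples, a difference of -0.11 ± 0.09 (SE). A_52_P179309 and A_52_P68221, both assigned to NM_016886, differed by -0.32 ± 0.10 and -0.57 ± 0.13. The groups overlapped on all 3 probes. On the mm7 coordinates these lie in the order A_52_P272364, A_52_P179309 and A_52_P68221 along the plus strand of chromosome X, over 65.2 kb, and the fall was larger at each step downstream. With flagged spots kept the differences were -0.21, -0.42 and -0.74.

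Grik1, which encodes GluK1, had the next largest fall after Gria2. A_51_P282609 (NM_146072, chromosome 16, 87945735 to 87945794, minus strand, mm7) read 6.55, 6.07, 6.28 and 6.22 in uninjured samples. It read 5.49, 5.42, 5.47, 4.97 and 4.78 in injured samples. All injured arrays lay under the uninjured ones, and injured samples 4 and 5 were the lowest. The difference was -1.05 ± 0.16 (SE), a 2.08-fold lower mean, or -1.27 with flagged spots kept. The other probe, A_52_P660400, 18.1 kb upstream, read 4.69 to 5.19 in uninjured and 3.64 to 4.49 in injured samples, a difference of -0.94 ± 0.16, or -1.15 with flagged spots kept. In Agilent's own ratio both were smaller, at -0.22 and -0.09, and in Cy5 alone they were -1.05 and -1.07. Cy3 was above background on 5 and 8 arrays for these probes and carried no substitute value. The cause of the smaller falls was not tested.

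The other kainate subunits differed little. Grik5, which encodes GluK5, a subunit that works with GluK1 to GluK3 partners, read 1.14 to 1.32 in uninjured and 1.01 to 1.24 in injured samples, a difference of -0.12 ± 0.07 (SE), or -0.16 with flagged spots kept. Its single probe had signal well over background in Cy5 and in Cy3 on all 9 arrays. Grik2, which encodes GluK2, was read by 2 fitted probes. A_52_P270135 overlapped between groups and differed by -0.09 ± 0.08, or -0.21 with flagged spots kept, and by 0.09 in Cy5 alone. A_52_P658133, listed under the older name C130030K03Rik, read 0.82 to 1.04 in uninjured and 0.56 to 0.75 in injured samples, a difference of -0.23 ± 0.07, or -0.33 with flagged spots kept. In Agilent's own ratio it was 0.34, where Cy3 carried a substitute value on 5 arrays. A_52_P655120 was above background on 1 array and was not fitted.

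The NMDA subunits had small differences. Grin1, the subunit every NMDA receptor needs, read 1.03, 1.15, 0.98 and 1.12 in uninjured samples. It read 0.78, 0.85, 0.62, 0.84 and 1.04 in injured samples, with injured sample 5 inside the uninjured range. The difference was -0.25 ± 0.08 (SE), or -0.30 with flagged spots kept, and -0.05 ± 0.12 in Cy5 alone. Grin3a, which encodes a glycine-binding subunit that lowers calcium entry, read 2.45 to 2.61 in uninjured and 2.03 to 2.40 in injured samples on A_52_P531731, without overlap. The difference was -0.28 ± 0.09, or -0.43 with flagged spots kept. In Agilent's own ratio the Grin3a difference was -0.07, with Cy3 above background on all 9 arrays, and in Cy5 alone -0.36. Its second probe, A_51_P146837, was above background on 1 array and was not fitted. Grin2b, which encodes the glutamate-binding GluN2B, was near background. A_51_P265765, above background on 7 arrays, differed by -0.10 ± 0.09, or -0.13 with flagged spots kept, and its 3 other probes were above background on 0 to 2 arrays.

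Keeping the flagged spots made the fall larger on all 18 probes, by 0.03 to 0.21. Most such spots, 20 of them, lay on injured array 2, where signal minus background went down to -9047. There the slope of the authors' processed values on values computed without these spots was 0.99, and with them 1.17. With the spots kept, limma called 19.7% of all probes.

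The arrays lay on 3 slides, each with its own scan time, and 1 slide held both groups. Slide 1 held uninjured samples 2, 3 and 4, slide 2 held injured samples 1, 2 and 5 with uninjured sample 1, and slide 3 held injured samples 3 and 4. Within slide 2 all 18 probes were lower in the injured samples. That slide has 1 uninjured array, whose spread is taken to be that of the other slides, and on 11 of the 18 probes this array was the highest of the 4 uninjured ones. The differences there were -1.85 ± 0.23 (SE) for Gria2, -1.32 ± 0.28 and -1.16 ± 0.28 for the Grik1 probes, -1.13 ± 0.39 for the brightest Gria1 probe and -0.66 ± 0.24 for the brightest Gria4 probe. Without uninjured sample 1 they were -1.55 for Gria2, -0.96 for the brightest Grik1 probe and -0.61 for the brightest Gria1 probe over all slides. No slide then holds both groups, so slide and group cannot be told apart in these values. With slide as a fixed term limma called 4.83% of all probes. Injured sample 5, the array with the lowest median Cy5 signal (156 against 194 to 238 on the others), was the lowest injured array on 12 of the 18 probes. Without it the difference was -0.55 on the brightest Gria1 probe and -0.94 on the brightest Grik1 probe.

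**Figure D3:**
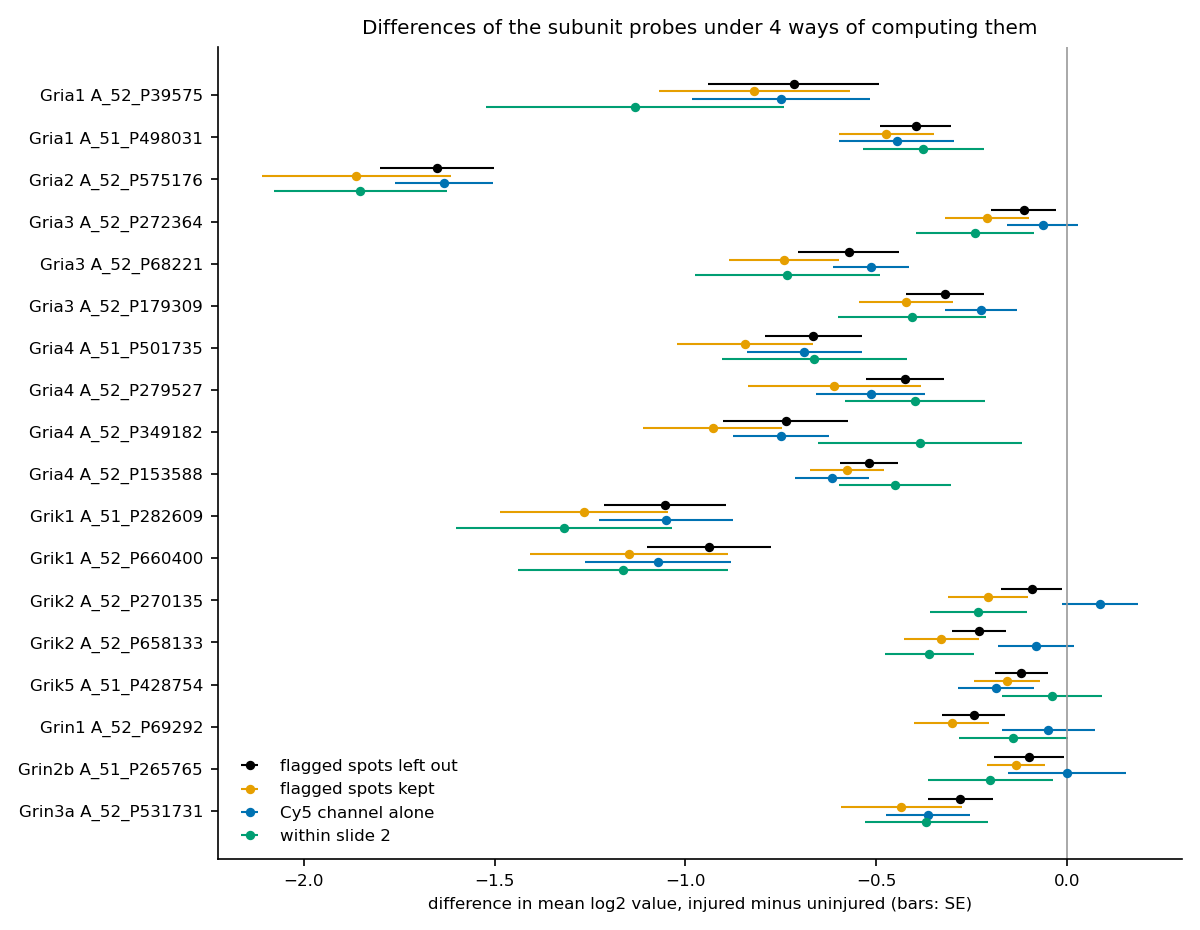
Injured minus uninjured difference in mean log2 value with its SE (horizontal axis) for the 18 fitted subunit probes, with flagged spots left out, with them kept, in Cy5 alone and within slide 2. Gria2 lies between -1.86 and -1.63 in all 4, and the Grik2 probe A_52_P270135 moves to 0.09 in Cy5 alone.

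Markers of the cells in the samples were set beside these values. Atf3, a transcription factor that injured sensory neurons switch on, went from -0.999 ± 0.0908 (SD, n = 4) to 4.14 ± 0.0939 (SD, n = 5) and was above every uninjured array on every injured array. Of 9 sensory neuron markers with a probe, 1 was called lower (Isl1, -0.49 ± 0.06 SE) and none higher, and the mean of the list ran from 4.46 to 4.68 in uninjured and from 4.31 to 4.72 in injured samples. Of 6 macrophage markers 1 was called higher (Aif1, 0.90 ± 0.20 SE), and none of 6 satellite glia, 6 myelinating Schwann cell, 4 red blood cell, 6 muscle or 6 endothelial and fibroblast markers was called. Of 8 spinal cord markers 3 were fitted and 1 was called lower, and Mnx1, Slc6a5, Olig1, Olig2 and Mog were not above background on 4 arrays. Among all genes 12.1% were called higher and 15% lower. The mean of 6 skeletal muscle markers ran from -1.01 to -0.88 in uninjured and from -1.07 to 2.49 in injured samples, with 2.49 on injured array 4 and 0.996 on injured array 2. The mean of 4 red blood cell markers ran from 2.63 to 3.09 in uninjured and from 2.80 to 4.25 in injured samples, with 4.25 on injured array 2 and 3.86 on injured array 5. The part of these markers in the subunit differences was not tested. Without injured samples 2 and 4, a choice made after seeing the data, Gria2 differed by -1.58 ± 0.18 (SE), the brightest Grik1 probe by -1.03 ± 0.18 and the brightest Gria4 probe by -0.80 ± 0.13. Without injured sample 4 alone Gria2 differed by -1.60 and the brightest Grik1 probe by -0.99.

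**Figure D4:**
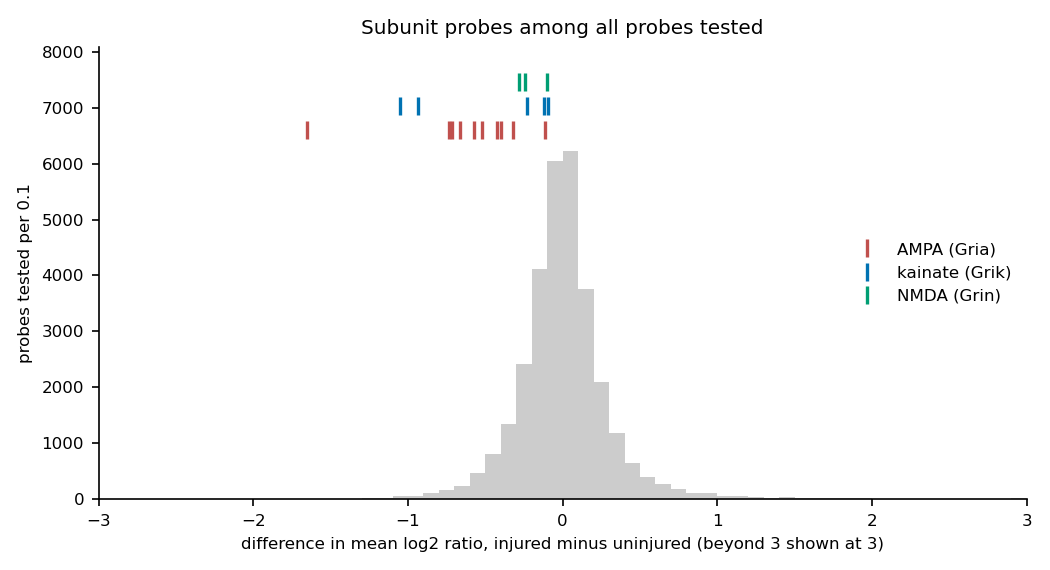
Number of fitted probes (vertical axis) by injured minus uninjured difference in mean log2 ratio (horizontal axis, steps of 0.1), with ticks for the 18 subunit probes by family. All ticks lie below 0. The Gria2 tick stands at -1.65, apart from the others, and the NMDA ticks lie between -0.28 and -0.10.

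The genes whose log2 ratios followed Gria2 most closely across the 9 arrays, by Pearson's r over 16483 other genes, were Tdrd7 (0.995), Ublcp1 (0.993), Rnf138rt1 (0.992), Cep70 (0.991) and Arhgef3 (0.991). All of them were lower in injured DRG, by 0.43 to 0.82. Tdrd7 is a tudor domain protein of RNA granules, Ublcp1 a phosphatase of the proteasome and Cep70 a centrosomal protein. The r values pool both groups and so hold the injury difference that Gria2 was picked for.

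The other genes of glutamate signalling were taken from 6 lists of 79 genes in all, of which 72 were fitted by their brightest probe. In injured DRG 11 were called higher and 16 lower, where 12.1% and 15% of all 16494 genes were, and 45 were not called. The lists, too, were chosen with earlier results of these data known, so their counts and p-values are given as a description. With slide as a fixed term, 5 list genes stayed called higher (Shisa9, Adarb1, Glul, Slc1a4 and Slc38a1) and 3 lower (Lrrtm2, Camk2b and Slc1a1). That fit rests on the 4 arrays of slide 2 and called 4.83% of all probes. The median difference over the 72 genes was -0.03, against 0.0021 over all genes. Adjusted p-values below are limma's, over all probes fitted. In Agilent's own ratio 9 list genes were called lower. Across all settings, only genes called with a difference over 0.5 in size or at a list's largest rise or fall were followed singly. Of these, 5 lost their call in Agilent's ratio, with adjusted p from 0.163 to 0.537 and the same direction. Which of the other list genes lost their call there was not followed. The differences of the 5 in that ratio were -0.52 for Grm8, -0.66 for Cacng2, -0.73 for Cacng5, -0.83 for Lrrtm2 and -0.13 for Frrs1l. The Frrs1l difference was -0.83 in the main comparison. Without injured samples 2 and 4, 8 list genes were called higher and 7 lower, where 4036 of the 31186 probes were called.

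Of 16 auxiliary and assembly genes fitted, 2 were called higher, 5 lower and 9 not at all, where 12.1% of all genes were called higher and 15% lower. Frrs1l, which AMPA receptors need for assembly, read 2.61 to 2.74 in uninjured and 1.39 to 2.15 in injured samples, a difference of -0.83 ± 0.13 (SE, adjusted p = 0.00135, limma). Its second probe differed by -0.99 ± 0.21. The TARP gene Cacng5, whose protein modulates AMPA receptor gating, read 3.33 to 3.59 and 2.23 to 3.18, a difference of -0.87 ± 0.18 (adjusted p = 0.00609). Cacng2, which encodes stargazin, differed by -0.53 ± 0.13 (adjusted p = 0.0142), and its 2 other fitted probes gave -0.12 and -0.68. With slide as a fixed term the Frrs1l difference was -0.94 (adjusted p = 0.0679), and those of Cacng5 and Cacng2 were smaller, at -0.44 (adjusted p = 0.303) and -0.16 (adjusted p = 0.71). The Cacng2 probe A_52_P569028 was at -0.87 in that fit (adjusted p = 0.0271). Cnih3 and Gsg1l, both AMPA receptor auxiliary proteins, were the other 2 called lower, by -0.37 and -0.48.

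The 2 auxiliary genes called higher were Neto2 and Shisa9. Neto2, a kainate receptor partner, read 1.95 to 2.19 in uninjured and 2.27 to 3.28 in injured samples, a difference of 0.78 ± 0.16 (SE, adjusted p = 0.00554). It was 0.64 with slide as a fixed block (adjusted p = 0.285) and 0.71 with median centring (adjusted p = 0.0705), and its second probe differed by 0.39 ± 0.11 (adjusted p = 0.0273). Shisa9, an AMPA receptor partner listed under 2700045P11Rik, read -0.18 to 0.10 and 0.39 to 0.79, a difference of 0.61 ± 0.09 (adjusted p = 0.00104). Its second probe differed by 0.22 ± 0.07 (adjusted p = 0.044, and 0.304 with slide as a fixed term).

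Of the 3 RNA editing enzymes, Adarb1 was called higher, as were 12.1% of all genes, and Adar and Adarb2 were not called. Adarb1 encodes ADAR2, which edits the Gria2 transcript at the site that sets calcium permeability. It read 1.33, 1.19, 1.29 and 1.23 in uninjured samples. It read 1.96, 2.01, 1.75, 2.09 and 2.09 in injured samples, all above the uninjured ones. The difference was 0.72 ± 0.08 (SE, adjusted p = 1e-04), its second fitted probe gave 0.62 ± 0.10, and the third was above background on 1 array and not fitted. Adarb2 differed by -0.06 ± 0.07 on its brightest probe (adjusted p = 0.583) and by -0.25 ± 0.08 on the other fitted one (adjusted p = 0.0396). Editing itself cannot be read from these probes.

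Of the 7 other ionotropic and delta subunit genes fitted, Grid1, a delta subunit, was called higher, with a difference of 0.45 ± 0.10 (SE, adjusted p = 0.00615), and the kainate subunit gene Grik4 lower, with -0.26 ± 0.07 (adjusted p = 0.0149). For this list and the metabotropic one below, the shares over all genes were 12.1% called higher and 15% lower. Grin3b had the largest fall of the ionotropic and delta list, -0.32 ± 0.11, which missed the threshold (adjusted p = 0.0505). It was 0.03 within slide 2, and it passed under several other settings, among them array weights (adjusted p = 0.0252) and slide as a random block (adjusted p = 0.00677). Of 6 metabotropic receptors fitted, Grm8 was called lower, at 2.78 to 3.09 in uninjured and 1.72 to 2.40 in injured samples, a difference of -0.79 ± 0.13 (adjusted p = 0.00136). Grm5 had the difference closest to a rise on its brightest probe, -0.02 ± 0.05 (adjusted p = 0.821), and its other fitted probe gave -0.34 ± 0.07 (adjusted p = 0.00567). With slide as a fixed term the difference was 0.51 for Grid1 (adjusted p = 0.163) and -0.92 for Grm8 (adjusted p = 0.0684), both at least as large in size as without it.

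Of 23 scaffold and trafficking genes fitted, 1 was called higher and 6 lower, where 12.1% and 15% of all genes were. Lrrtm2, a synaptic adhesion protein, differed by -0.63 ± 0.09 (SE, adjusted p = 0.000548), and Camk2b, a calcium-dependent kinase that acts on AMPA receptors, by -0.52 ± 0.06 (adjusted p = 0.000132). Nptx1, a secreted pentraxin that clusters AMPA receptors, differed by -0.63 ± 0.15 (adjusted p = 0.0112), and by -0.32 with slide as a fixed block (adjusted p = 0.525). With a normexp offset of 0 Nptx1 differed by -0.93 (adjusted p = 0.167). Cy3 was above background on 0 arrays for the Lrrtm2 and Nptx1 probes. In Cy5 alone they differed by -0.60 and -0.71. Dlg4, Homer1 and Camk2a were the other 3 called lower, by -0.33, -0.35 and -0.31. Dlg2, a PSD-93 scaffold gene, was called higher, with 0.21 ± 0.07 (adjusted p = 0.0445). That call ended when any one array other than injured sample 5 was left out. It also ended within slide 2 (0.10, adjusted p = 0.687), with flagged spots kept (0.14, adjusted p = 0.336), with median centring (adjusted p = 0.059) and with the authors' values (adjusted p = 0.125).

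Of 17 genes of glutamate synthesis, release and uptake, 6 were called higher by 0.22 to 0.78 and 3 lower. Among all genes 12.1% were called higher and 15% lower. Glul, the glutamine synthetase of satellite glia, read 3.67 to 3.83 in uninjured and 4.28 to 4.73 in injured samples, a difference of 0.78 ± 0.09 (SE, adjusted p = 0.000136). Slc1a4, a neutral amino acid exchanger, rose by 0.77 ± 0.07 (adjusted p = 4.2e-05), and Slc38a1, a glutamine transporter, by 0.56 ± 0.07 (adjusted p = 0.000177). Slc1a2, the glutamate transporter GLT-1, rose by 0.50 ± 0.12 (adjusted p = 0.0105), and its other fitted probe gave 0.20. It was 0.54 with slide as a fixed block (adjusted p = 0.182) and 0.30 with flagged spots kept (adjusted p = 0.114).

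The 3 genes called lower in that list included the largest fall of all 6 lists by the brightest probe. Slc1a1, the neuronal glutamate transporter EAAC1, read 2.37, 2.41, 2.42 and 2.41 in uninjured samples. It read 1.67, 1.41, 1.18, 1.54 and 1.55 in injured samples, all below the uninjured ones. The difference was -0.93 ± 0.09 (SE, adjusted p = 4.89e-05), and its second probe gave -0.69 ± 0.07. Slc1a6 and Gls2 were lower by -0.37 and -0.42. Slc17a6, which loads glutamate into the synaptic vesicles of most DRG neurons, differed by 0.36 ± 0.10 (adjusted p = 0.0202), and Slc1a3, the glial transporter GLAST, by 0.22 ± 0.07 (adjusted p = 0.0395). Neither Slc17a6 nor Slc1a3 stayed called with slide as a fixed term.

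**Figure D5:**
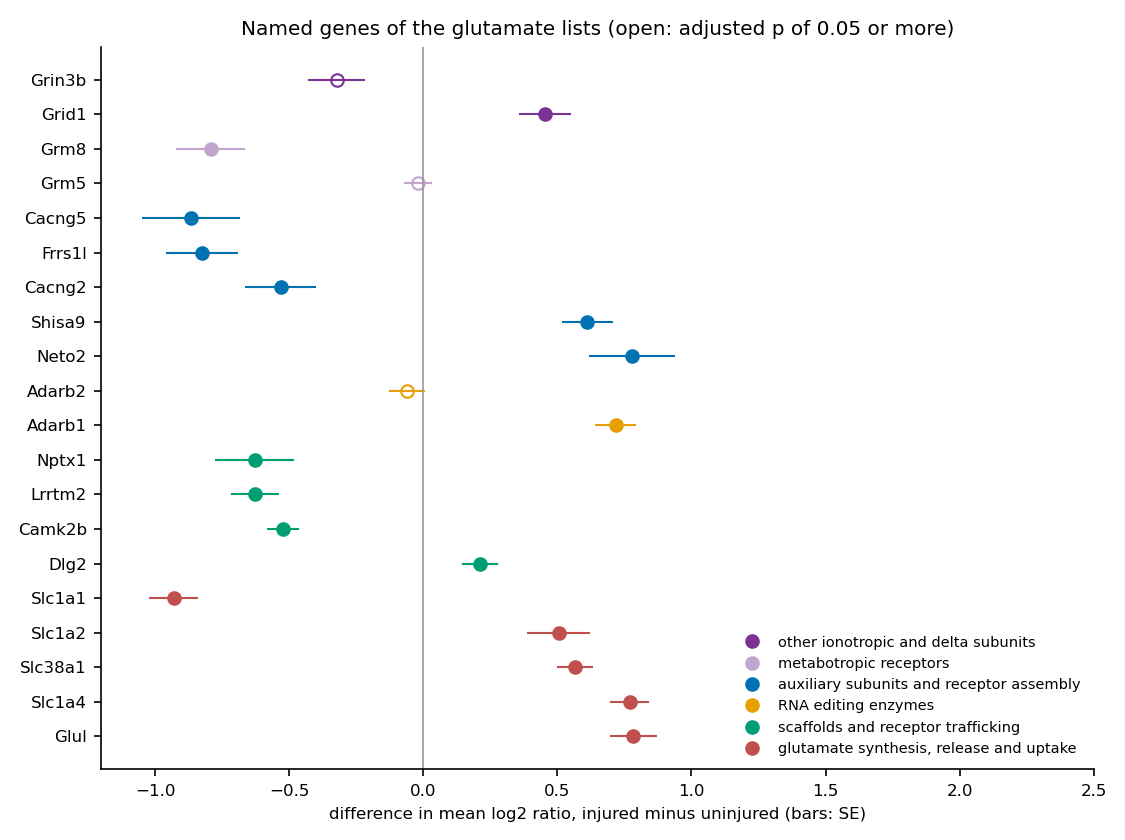
Injured minus uninjured difference in mean log2 ratio with its SE (horizontal axis) for the named genes of the 6 glutamate lists, by their brightest probe, coloured by list, with open symbols where limma's adjusted p was 0.05 or more. Slc1a1 has the largest fall (-0.93) and Glul and Neto2 the largest rises (0.78).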

How the data were processed

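Scanner files gave, per the file headers of Agilent Feature Extraction 10.5.1.1, un-normalized spot intensities with local backgrounds, and flags and log10 ratios made by Agilent's background model and dye normalization. The deposited table of the authors' processed values holds log2 ratios, background-corrected and normalized with limma. Of 43379 spots that were not controls, holding 41174 probes, spots flagged as background outliers in either channel were left out. Background was corrected by normexp (offset 50), followed by loess within arrays and averaging of repeated spots, in R 4.3.3 with limma 3.58.1. Probes with Cy5 well above background on at least 4 arrays (31186) were fitted as injured against uninjured, with Benjamini-Hochberg adjustment over all of them. The number of arrays limits the precision.

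Symbols came from accessions (22951 probes), symbols in the file (6659) or older symbols (3109), and 8455 kept their file name. Genes with several probes were represented by the brightest. Named were all probes of the subunits, list genes called with a difference over 0.5 in size, the largest rise and fall of each list and the 5 genes most correlated with Gria2. The other list genes named were chosen after their values were seen. Subunits and lists were chosen with earlier results of these data known. The alternatives tried covered background, normalization, filter, channel, slide, array weights, moderation and each array left out. Plots used Python 3.11.15 and matplotlib 3.10.9.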

Additional observations from a re-analysis of the deposited data

Results flagged for a closer look

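Among 76 groups of 4 or 5 arrays, over the 18 fitted subunit probes and 20 named list genes, 3 had 1 array that stood apart by Dixon's gap test, where chance gives about 1 in 20. The Grik2 probe A_52_P658133 was 1.04 in uninjured sample 1, above 0.82 to 0.85 in the other uninjured samples. Grid1 was 0.32 in uninjured sample 4, above 0.17 to 0.18 in the others. Slc1a1 was 2.37 in uninjured sample 1, below 2.41 to 2.42 in the others.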

How the results depend on the processing

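The counts were 7337 probes called and 11 and 16 glutamate list genes called higher and lower. With slide as a fixed term, which rests on the 4 arrays of slide 2, they were 1507, 5 and 3. Keeping flagged spots gave 7 list genes higher, and normexp without an offset gave 9 lower. Agilent's own ratio gave 9 lower. Median centring in place of loess gave 3521 probes and 7 list genes higher. Leaving out injured samples 2 and 4 together, which leaves fewer arrays and was added after seeing the data, gave 4036 probes and 7 list genes lower. Among the list genes followed singly it ended the calls of Cacng2, Cacng5, Dlg2 and Nptx1. Which of the other list genes lost their call was not followed. The cause of the other moves was not tested. Leaving out 1 array gave 5353 to 7485 probes, 8 to 11 higher and 12 to 16 lower. Of the subunit probes 4 turned sign, Grik2 A_52_P270135 in Cy5 alone (0.09) and, with Agilent's ratio, Gria4 A_52_P279527 (0.32), A_52_P349182 (0.31) and Grik2 A_52_P658133 (0.34). Of the list genes followed singly, those that turned sign had not been called. These were Grm5 under median centring (0.0042), in Cy5 alone (0.18), with Agilent's ratio (0.0171) and with no background correction (0.0159), Adarb2 in Cy5 alone (0.0208) and Grin3b with slide as a fixed term (0.0306). No paired analysis was possible because the replicate numbers follow the order of deposit and the labels pair no samples. Probes with a reference channel near background, 9 of the 18 subunit probes, have ratios that lean on the background model.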
